A study of Tupaia belangeri with 6 samples.

Results

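Dentate granule nuclei of the tree shrew (TS) hippocampus were chosen from single-nucleus RNA sequencing by their own transcripts, and 106 of the 37603 sequenced nuclei met the rule. A nucleus had to hold at least 200 genes, at least 1 transcript of PROX1, and at least 4 transcripts of PROX1, C1QL2, CALB1 and SEMA5A together. It also had to hold at least 1 transcript of CAMK2A or SLC17A7, which mark excitatory neurons, and none of the 7 exclusion genes GAD1, ADARB2, PDGFRA, VCAN, MOG, AQP4 and PTPRC. A transcript is counted by its unique molecular identifier (UMI), so copies made from it by amplification add nothing. The 13 genes of the rule, and every difference between granule and other excitatory nuclei, therefore describe how the nuclei were chosen and are given without a test. The groups of animals played no part in the rule.

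Granule cells are the principal excitatory neurons of the dentate gyrus. They receive the main cortical input of the hippocampus and send mossy fibres to CA3 pyramidal cells and to mossy cells of the hilus. They fire sparsely under strong inhibition, part of which is tonic and carried by GABA-A receptors outside synapses, and new ones are added in adult life in many mammals. PROX1 is the transcription factor that sets and keeps their identity, CALB1 encodes the calcium buffer calbindin, C1QL2 a secreted synaptic protein of mossy fibres, and SEMA5A a semaphorin that acts on granule cell synapses.

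Nuclei were isolated from frozen hippocampus (Tupaia belangeri), with 1 library for each of 3 control TSs and 3 TSs with Alzheimer's-like pathology (ALP). The ALP TSs aged naturally and were picked for cognitive deficits in a pipeline maze, and the control TSs were healthy animals of matched age. The animals came from a population of 5 to 6 years of age, no allele, transgene or drug separates the groups, and the sex of the animals is not in the labels. Behaviour defines the ALP group, and the dissection took the whole hippocampus rather than the dentate gyrus. Control 1, 2 and 3 held 8785, 3011 and 7969 nuclei with 32679011, 19748976 and 35898940 UMIs, and ALP 1, 2 and 3 held 5091, 7151 and 5596 nuclei with 20119934, 30520809 and 19182981 UMIs.

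The granule nuclei were few and unevenly spread. Control 1 gave 43 of them, control 2 gave 6, control 3 gave 20, and ALP 1, 2 and 3 gave 11, 13 and 13. Their UMIs summed to 224072, 47396 and 145308 in control libraries and to 52559, 73478 and 73470 in ALP libraries, 0.390% of all UMIs. Control 1 thus holds more granule UMIs than any other library, and control 2 the fewest, although its nuclei were the deepest, with a median of 5181 UMIs over all its nuclei against 1747 to 2492 in the other 5 libraries. Y-linked transcripts stood above 10 CPM (UMIs scaled to the same total in every library) in control 1, control 2 and ALP 2, so that libraries of both kinds are present in both groups. No granule barcode was shared between libraries, and at most 0.465% of the barcodes of any pair of libraries were. Of the 106 nuclei 9 (8.49%) were marked as doublets, against 5.49% of all nuclei.

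ADARB2 decided the number of granule nuclei more than any other exclusion gene. After the steps on PROX1, the marker sum and excitatory genes 1512 nuclei remained, and 1352 of them (89.4%) held ADARB2, an RNA-editing homologue used here to keep out interneurons. MOG was found in 607 of the 1512, VCAN in 237, PTPRC in 238, AQP4 in 196, PDGFRA in 120 and GAD1, which makes GABA, in 7. ADARB2 was the sole reason for leaving out 585 nuclei, which together with the 106 form a wider set of 691. It was present in 83.5%, 85.4% and 78.9% of this wider set in control 1, 2 and 3, and in 82.3%, 91.1% and 84.9% in ALP 1, 2 and 3. Free RNA can put a UMI into any droplet, and among 8431 excitatory nuclei without PROX1 and without the other 6 exclusion genes ADARB2 was found in 28.2%, at a median of 6615 UMIs against 5536 in the wider set. Among 5906 MOG nuclei without PROX1, GAD1 or the excitatory genes it was found in 11.9%, at a median of 1462.5 UMIs. The 585 nuclei resembled the 106 in the genes described next, so their values are given beside them, and the plot of nuclei by library shows both.

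**Figure D1:**
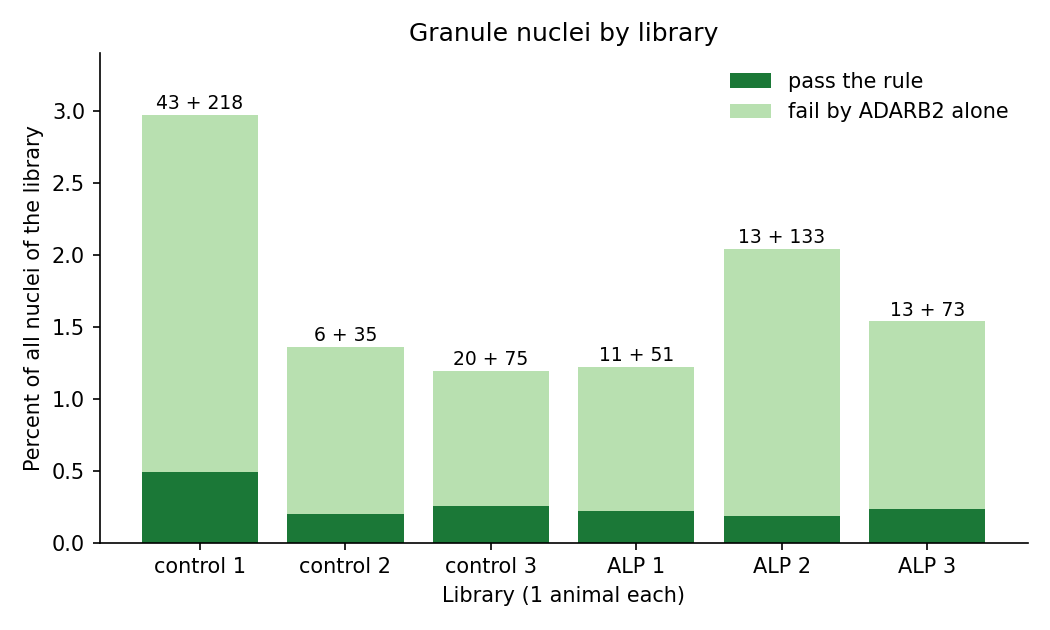
Percent of all nuclei of each library (vertical axis) that pass the rule (dark) or fail it by ADARB2 alone (light), with the number of nuclei of each kind above the bars. Control 1 is the tallest bar in both parts, with 43 and 218 nuclei, and nuclei failing by ADARB2 alone outnumber the granule nuclei in every library.

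Among the markers of the rule SEMA5A carried most of the counts. It was present in 100 of the 106 nuclei, CALB1 in 38 and C1QL2 in 11, and SEMA5A gave 60.2% of the marker UMIs, PROX1 28.9%, CALB1 9.05% and C1QL2 1.87%. PROX1 itself stood at 1 UMI in 64 nuclei, 2 in 25 and 3 or more in 17. The marker sum was 4, the least allowed, in 33 nuclei, its median was 5.5 and its maximum 16. CAMK2A, a kinase of excitatory synapses, was present in 96 nuclei, and SLC17A7, the vesicular glutamate transporter, in 54. In most nuclei the choice thus rested on a single PROX1 UMI together with SEMA5A.

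Nuclei on both sides of the thresholds are described with CNTN5, a contactin that was not part of the rule, and with GLIS3 and SLC4A4. CNTN5 stood at 3091 CPM in the 73 nuclei with a marker sum of 5 or more, at 2327 CPM in the 33 with a sum of 4, at 1898 CPM in the 49 nuclei that failed with a sum of 3, and at 1045 CPM in 150 with a sum of 1 or 2. GLIS3 stood at 347, 208, 212 and 140 CPM and SLC4A4 at 597, 315, 363 and 326 CPM in the same order, so these did not fall at each step. In the nuclei left out for ADARB2 CNTN5 stood at 3397 CPM with 1 or 2 ADARB2 UMIs (208 nuclei), at 3557 CPM with 3 to 9 (298 nuclei) and at 4042 CPM with 10 or more (79 nuclei). Other excitatory nuclei, which had CAMK2A or SLC17A7 but neither PROX1 nor any exclusion gene, numbered 6053 and held 395 CPM of CNTN5, below all of these. The 79 nuclei with most ADARB2 were also the deepest, at a median of 10400 UMIs, and held VIP and DLX6, which belong to interneurons, at 23.3 and 41.1 CPM, against 1.62 and 3.25 CPM in the 106.

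The label was checked against granule cell genes outside the rule. Of the 8 on that list with at least 5000 UMIs over all nuclei, 5 were higher in granule than in other excitatory nuclei in 6 of 6 libraries (STXBP6, DOCK10, TRPC6, FAT4 and SYNPR), and 1 was lower in 6 of 6 (PDZD2). Over all 3853 genes at that depth 263 (6.83%) were higher and 194 (5.04%) lower in 6 of 6. SYNPR, a synaptic vesicle protein of mossy fibre terminals, stood at 665, 633 and 785 CPM in control and 571, 367 and 354 CPM in ALP granule nuclei, and at 88.1 to 321 CPM in other excitatory nuclei. DOCK10, a regulator of dendritic spines, stood at 440 CPM in all granule nuclei together and 139 CPM in the others. TRPC6, a cation channel, stood at 61.7 against 18.1 CPM. BCL11B, a transcription factor that marks granule cells in rodents, did not separate the sets: it stood at 159 against 123 CPM and was higher in granule nuclei in 3 of 6 libraries. DSP and PDYN had no UMI in the 106 nuclei, and SLC30A3 had none in any nucleus. Thus 5 of the 8 went with the name, and BCL11B and PDZD2 did not.

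The genes with the highest ratio of granule to other excitatory nuclei were GLIS3, SLC4A4, CNTN5, ARHGAP42, TAFA2, STXBP6, PRKD1, TIAM1, ZNF536 and TRPM3, chosen after their values were seen among 794 genes with at least 100 UMIs in the 106 nuclei. GLIS3, a zinc finger transcription factor, stood at 464, 169 and 227 CPM in control 1, 2 and 3 and at 114, 150 and 354 CPM in ALP 1, 2 and 3. Other excitatory nuclei held 41.4, 5.70 and 15.9 CPM and 11.4, 11.1 and 21.3 CPM in the same order. All 6 granule values lay above all 6 others, and the pooled ratio was 18.3. A GLIS3 UMI was found in 61.3% of granule nuclei (40.0% of 100 nuclei thinned to 2000 UMIs) and in 6.21% of other excitatory nuclei (3.1% after thinning).

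CNTN5 stood at 3789, 2025 and 2904 CPM in control and 2245, 1483 and 2287 CPM in ALP granule nuclei, 7.24 times the pooled value of other excitatory nuclei, whose libraries lay between 286 and 527 CPM. It was present in 96.2% of granule nuclei (94.0% after thinning) and in 46.0% of the others (31.2%). STXBP6, which binds the membrane fusion machinery, stood at 540, 443 and 262 CPM in control and 457, 599 and 517 CPM in ALP libraries, 5.06 times the others, which reached 128 CPM at most. For both genes the lowest granule library was above the highest library of other excitatory nuclei. TIAM1, which activates the GTPase Rac at spines, stood at 841 CPM against 180 CPM, and TRPM3, a cation channel, at 1868 against 422 CPM. SLC4A4, a sodium bicarbonate carrier that is abundant in astrocytes, stood at 511 against 47.6 CPM. ARHGAP42, a GTPase-activating protein, varied widely between libraries, with 549, 317 and 344 CPM in control and 19.0, 122 and 177 CPM in ALP granule nuclei.

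The 585 nuclei with ADARB2 held the same genes at like amounts, 328 CPM of GLIS3, 556 of SLC4A4, 3614 of CNTN5, 588 of STXBP6 and 955 of TIAM1, and GLIS3 was found in 77.3% of them at a median depth of 5627 UMIs, against 4645 in the 106. PROX1 stood at 250 CPM, SEMA5A at 649 CPM and BCL11B at 147 CPM in these nuclei. The plot of the highest-ratio genes sets the libraries of the 3 kinds of nuclei side by side.

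**Figure D2:**
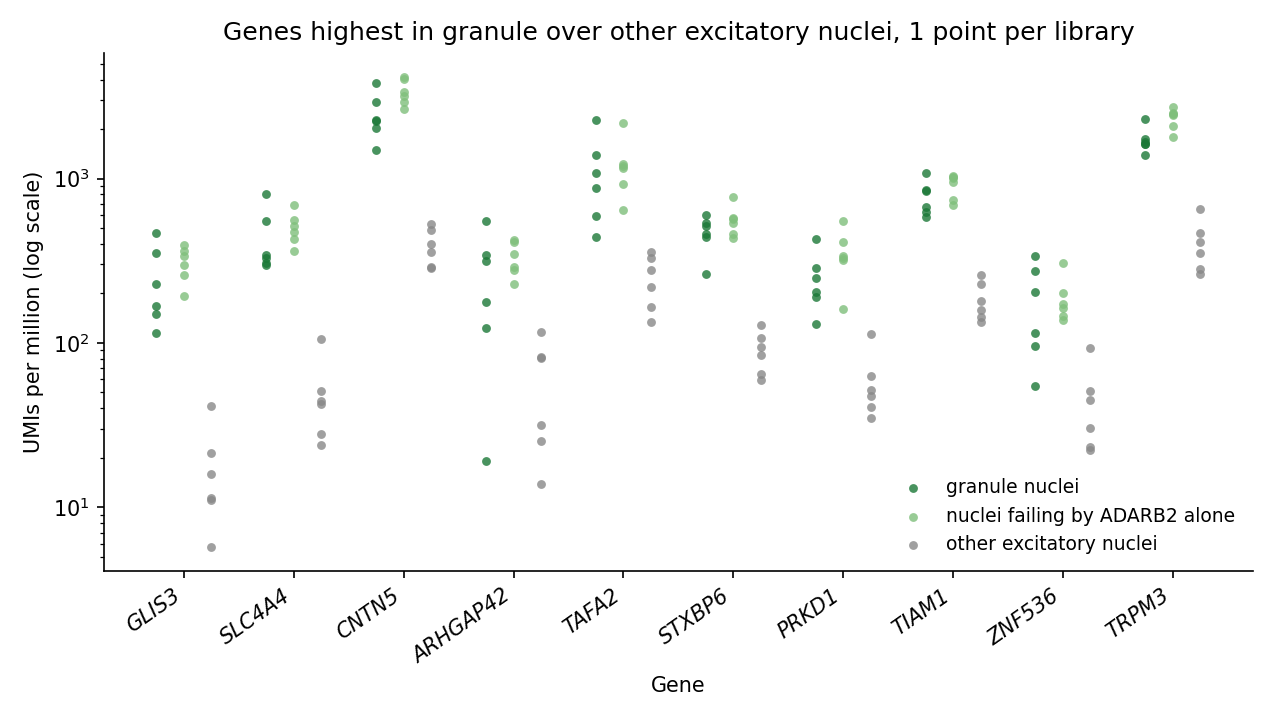
CPM (vertical axis, log scale) of the 10 genes with the highest ratio, with 1 point per library for granule nuclei, nuclei failing by ADARB2 alone and other excitatory nuclei. Granule and ADARB2-carrying nuclei overlap in every gene and lie mostly above other excitatory nuclei. In ARHGAP42 (19.0) and ZNF536 (54.4) the lowest granule library lies among the others.

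Some genes of other hippocampal excitatory neurons were lower in granule nuclei. Of 9 markers of CA pyramidal and mossy cells with enough UMIs, 4 were lower in 6 of 6 libraries and 0 were higher, and the 20 markers of the list summed to 1960 and 2055 CPM in granule nuclei of ALP 1 and 2, beside 2075 and 2299 CPM in other excitatory nuclei of these libraries. HS3ST4, a heparan sulfate sulfotransferase, stood at 401 against 847 CPM, MAN1A1, a mannosidase of the Golgi, at 232 against 508 CPM, and ETV1, a transcription factor, at 73.0 against 151 CPM. Among abundant genes outside these lists, PALMD, CDH10, ELAVL2, CYTH3, SOX5 and SLC8A1 were lower in 6 of 6 libraries, named after their values were seen. SLC8A1, a sodium calcium exchanger, stood at 1123 against 2628 CPM, and SOX5, a transcription factor, at 227 against 534 CPM. CALCRL, a mossy cell gene in rodents, went the other way at 35.7 against 6.64 CPM.

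Among the lists of synapse genes, GABA-A receptor genes had the largest share of members higher in granule nuclei, with 4 of 10 higher and 0 lower in 6 of 6 libraries. GABRA4 and GABRD encode the subunits of the extrasynaptic receptor that carries tonic inhibition. GABRA4 stood at 384, 295 and 200 CPM in control and 266, 177 and 313 CPM in ALP granule nuclei, against 156 CPM in all other excitatory nuclei. GABRD, which was under the depth limit of the list, stood at 35.7, 21.1 and 27.5 CPM and at 19.0, 27.2 and 68.1 CPM, against 2.17 to 7.19 CPM in the libraries of other excitatory nuclei, a pooled ratio of 6.76 from few UMIs. GABRB2, another receptor subunit, stood at 372 against 213 CPM, and GPHN, which anchors receptors at synapses, at 1121 against 844 CPM. The granule values of GABRD and those of the others did not overlap.

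Of 9 AMPA, kainate and delta receptor genes and 2 NMDA receptor genes none was higher or lower in 6 of 6 libraries, and of 5 metabotropic receptors 1 was higher, GRM3, at 261 against 68.0 CPM. In the 585 nuclei with ADARB2, which hold more UMIs and in which 847 of all 3853 genes were higher and 485 lower in 6 of 6, 2 of the 9, 2 of the 2 and 2 of the 5 were higher and 1, 0 and 1 lower. Of 15 postsynaptic scaffold genes DLG1 was higher and HOMER2 lower in 6 of 6. Among 21 potassium channel genes KCNT2, a sodium-activated channel, and KCNIP4, which modulates A-type current, were higher, at 415 against 145 CPM and 3016 against 1483 CPM. KCNQ5 and KCNQ3, which carry M-current, and KCNN2, a calcium-activated channel, were lower, with KCNQ5 at 445 against 876 CPM and KCNN2 at 157 against 326 CPM. In the 585 nuclei with ADARB2 9 of the 21 were higher and 2 lower in 6 of 6, KCNT2, KCNIP4 and KCNN2 among them in the same direction, while KCNQ5 was higher in 1 of the 6 libraries and KCNQ3 in 3. The calcium channel CACNA1C (868 against 530 CPM), the sodium channel SCN3A (313 against 170 CPM) and the calcium release channel RYR2 (230 against 149 CPM) were higher in 6 of 6, and CACNA2D3 lower.

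Release and adhesion genes split in both directions. Of 23 genes of the release machinery SYN3, SYT7 and NSF were higher and SYT1, SYT4, SV2B and CADPS2 lower in 6 of 6 libraries. SYN3, a synapsin, stood at 388, 295 and 96.3 CPM in control and 304, 245 and 367 CPM in ALP granule nuclei, against 70.1 CPM in all other excitatory nuclei. SYT1, the calcium sensor of fast release, stood at 2410 against 3375 CPM. Of 34 adhesion genes 8 were higher and 6 lower, so that most did not keep 1 direction. LRRTM4, a postsynaptic organiser, stood at 1796 against 814 CPM, IL1RAPL1 at 1595 against 595 CPM and NCAM2 at 2023 against 977 CPM, while CNTNAP2 stood at 2854 against 4273 CPM and NRXN3 at 1929 against 3104 CPM. Of 27 axon guidance genes 4 were higher (SLIT3, EPHA7, UNC5D and NTNG1) and 3 lower (ROBO2, EPHA6 and UNC5C). EPHA7, an ephrin receptor, stood at 1337 against 485 CPM, and ROBO2, a receptor for SLIT proteins, at 2708 against 5140 CPM.

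Of 6 genes of immature neurons 0 were higher in granule nuclei in 6 of 6 libraries, and DCX, a microtubule protein of migrating neurons, was lower, at 95.7 against 138 CPM. In the 585 nuclei with ADARB2 3 of the 6 were higher and 2 lower. Of 10 genes of Alzheimer's risk loci SORL1, a sorting receptor of the amyloid precursor, and MEF2C, a transcription factor, were higher and 0 were lower. Of 10 genes for amyloid, tau and their enzymes the kinases DYRK1A and FYN were higher and 0 lower. In the 585 nuclei with ADARB2 3 of these 10 were higher and 1 lower, with DYRK1A higher in 6 of 6 libraries and FYN in 5. Of 21 genes of oxidative phosphorylation none kept 1 direction in the 6 libraries.

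Transcripts of other cell types were present in granule nuclei and were summed for each list of markers, leaving the 7 exclusion genes aside. Of 12 interneuron markers 9 had a UMI, and ERBB4 gave 384 of their 422 UMIs. The sums were 625, 2595 and 406 CPM in control and 190, 191 and 1034 CPM in ALP libraries, with GAD2, SLC32A1 and PVALB at 0. Of 9 oligodendrocyte markers 5 had a UMI, led by ST18 with 140 of 211, at 397, 527 and 385 CPM and 304, 313 and 27.2 CPM, with MBP, MOBP, MAG and OPALIN at 0. The astrocyte list was mostly SLC4A4, 315 of 379 UMIs, at 906, 823 and 447 CPM and 381, 327 and 381 CPM, with GJA1 and ALDOC at 0. SLC4A4 is also among the genes highest in granule nuclei, with a UMI in 70.8% of them and in 14.3% of other excitatory nuclei. Control 2 had the highest interneuron and oligodendrocyte sums. The astrocyte sums and the oligodendrocyte sums were both lower in ALP without overlap between the groups, and their part in the differences between groups was not tested.

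Of 8 vascular and choroid markers 5 had a UMI, led by TTR with 19 of 37, at 98.2, 63.3 and 48.2 CPM in control and 38.1, 27.2 and 13.6 CPM in ALP libraries, again without overlap. Of 8 markers of oligodendrocyte precursors 7 had a UMI, led by PCDH15, at 576, 570 and 943 CPM and 438, 667 and 436 CPM. Of 10 microglia markers 9 had a UMI, led by LRMDA with 16 of 52, at 98.2, 63.3 and 34.4 CPM and 57.1, 204 and 54.4 CPM. Of 20 CA pyramidal and mossy markers 17 had a UMI, led by HS3ST4, at 777, 1034 and 1032 CPM and 1960, 2055 and 721 CPM. These 3 sums overlapped between the groups. GAD2, SLC32A1 and MOBP had no UMI in any nucleus of the series, so their absence in granule nuclei is no measure of other cells. The part of other cell types in the differences between ALP and control granule nuclei was not tested.

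The share of granule nuclei did not differ between ALP and control TSs beyond the spread of the animals. Granule nuclei were 0.489%, 0.199% and 0.251% of all nuclei in control 1, 2 and 3, with exact 95% binomial intervals of 0.354 to 0.659%, 0.0732 to 0.433% and 0.153 to 0.387%. In ALP 1, 2 and 3 they were 0.216%, 0.182% and 0.232%, with intervals of 0.108 to 0.386%, 0.0968 to 0.311% and 0.124 to 0.397%, and all intervals cover counting error only. Control TSs averaged 0.313% ± 0.155 and ALP TSs 0.210% ± 0.0258 (SD over 3 libraries each), and the groups overlapped (two-sided exact permutation test, p = 0.3, where 0.1 is the smallest p that 3 against 3 libraries allow). Control 1 set the control mean, since without it the difference was −0.0151 percentage points in place of −0.103. Without control 2 the difference was −0.160 percentage points, and the groups did not overlap. Of excitatory nuclei granule nuclei were 4.10%, 0.806% and 1.62% in control and 1.02%, 0.952% and 1.47% in ALP libraries (exact permutation p = 0.5). This difference of −1.03 percentage points was −0.0663 without control 1 and −1.71 without control 2, where the groups did not overlap. With ADARB2 not excluded granule nuclei were 2.97%, 1.36% and 1.19% and 1.22%, 2.04% and 1.54% of all nuclei (exact permutation p = 0.9). Every nucleus was also thinned to 2000 UMIs, which leaves out shallower nuclei. The rule was applied again to the thinned counts, so nuclei that lost their ADARB2 UMIs could pass. The share of all nuclei then turned in direction, with 0.127% in control and 0.140% in ALP libraries (a difference of 0.0138 percentage points, exact permutation p = 0.9). Single libraries lay between 0.0448% and 0.248% in control and between 0.0736% and 0.201% in ALP, from few nuclei. The share of excitatory nuclei did not turn, with 0.722% in control and 0.542% in ALP libraries (exact permutation p = 0.8). Fewer granule nuclei and less RNA per nucleus cannot be told apart in the unthinned share.

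Granule nuclei held fewer UMIs in ALP than in control libraries. The median per nucleus was 4207, 6685.5 and 6209 UMIs in control 1, 2 and 3 and 3192, 3368 and 3738 UMIs in ALP 1, 2 and 3. The groups did not overlap (5700.5 ± 1315 against 3433 ± 279, SD, n = 3 each), and the exact permutation p was 0.1, the smallest possible. The difference of −2268 UMIs became −108 with at most 2500 genes per nucleus and −208 with a marker minimum of 6. In the wider set the medians were 5267, 7510 and 6083 and 4890.5, 5525 and 5613 UMIs, which overlapped (exact permutation p = 0.3), and in other excitatory nuclei they were 5237.5, 7820 and 7473 and 6667, 7023 and 6581 (exact permutation p = 1.0). At an equal depth of 2000 UMIs the median number of genes was 1182, 1211 and 1245 in control and 1123, 1164 and 1064 in ALP granule nuclei. All nuclei of the series went the same way, with 1178, 1138 and 1188 against 1059, 1099 and 1022 genes. UMIs of the 3 features with MT- at the start of the name, MT-ND1li1 and 2 antisense-named ones, which are no measure of all mitochondrial RNA, were 0.0221% ± 0.00546 of the granule UMIs in control and 0.0148% ± 0.00244 in ALP libraries (SD, n = 3, exact permutation p = 0.2).

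**Figure D3:**
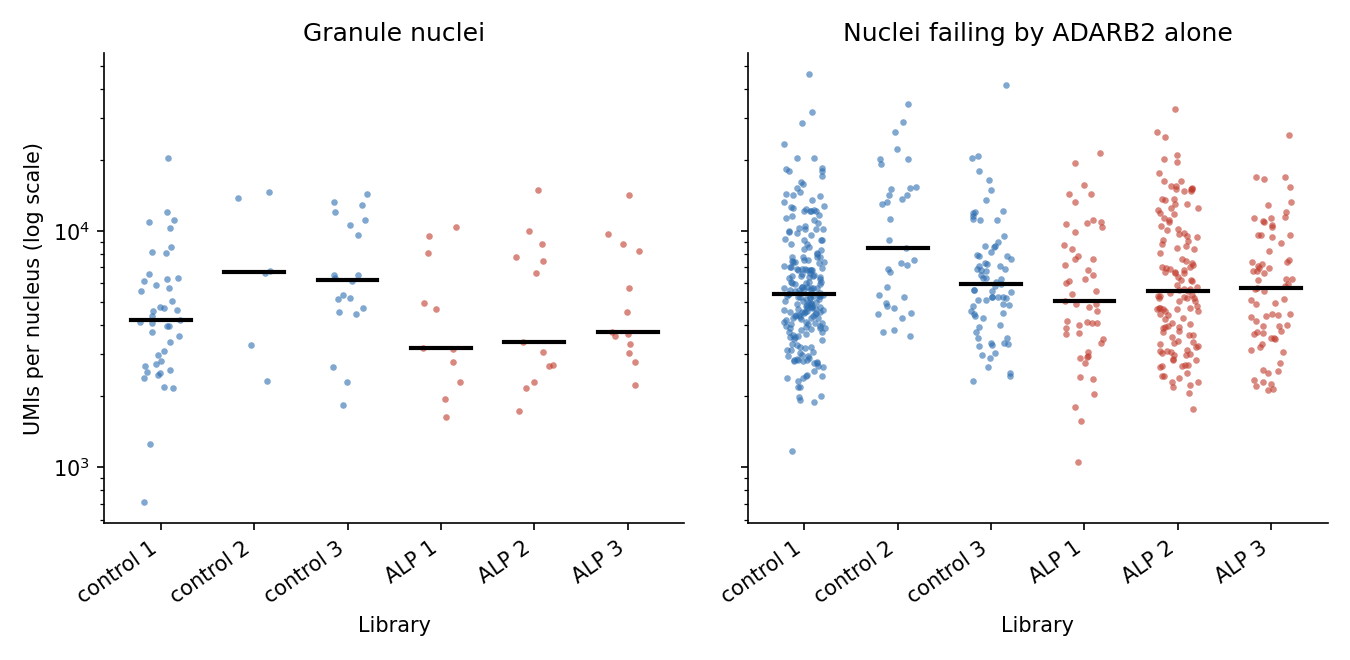
UMIs per nucleus (vertical axis, log scale) in each library, 1 point per nucleus with a bar at the median, for granule nuclei (left) and nuclei failing by ADARB2 alone (right). The ALP medians of granule nuclei, 3192 to 3738, lie below the control medians, 4207 to 6685.5, while on the right the medians of the groups overlap.

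To ask which genes differ between ALP and control granule nuclei, UMIs were summed per library and tested with edgeR over 1167 features that passed the filter on low counts. No feature was called at an adjusted p under 0.05 and a log2 fold change beyond 0.25 (0 of 1167, 0.0%). The smallest adjusted p of edgeR was 0.373, 89 features (7.63%) had an unadjusted p under 0.05, and DESeq2 called 0 with 43 under that limit. In 69 features (5.91%) all 3 ALP values lay above the 3 control values, and in 74 (6.34%) they lay below. Nothing in the labels says more of the animals than their group, so the p-values measure the spread between these 6 libraries.

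Below the called level, the genes with the smallest p whose groups did not overlap were BCL11A, CDH10, VPS50, PTOV1 and SRSF10 with higher values in ALP, and MED12L, ARHGAP42, THSD7A, PLCE1 and MED13 with lower values. Their CPM here are scaled by TMM over the tested features. BCL11A, a zinc finger transcription factor of developing and adult neurons, stood at 249, 98.7 and 209 CPM in control and 559, 491 and 484 CPM in ALP granule nuclei (log2 fold change 1.31 ± 0.35 SE, edgeR adjusted p = 0.429). CDH10, a cadherin, stood at 190, 65.8 and 121 CPM and 323, 552 and 290 CPM (1.44 ± 0.40, adjusted p = 0.440). SRSF10, a splicing factor, stood at 118, 132 and 143 CPM and 323, 266 and 387 CPM (1.31 ± 0.39, adjusted p = 0.455). In each of these 3 the lowest ALP library was above the highest control library, and none passed the test. VPS50, part of an endosome recycling complex, and PTOV1, a regulator of transcription, had log2 fold changes of 1.45 ± 0.41 and 1.71 ± 0.50. Control 2, with 47396 UMIs in its granule nuclei, rests on very few UMIs of these genes. As CPM of all UMIs it held 63.3 of BCL11A, 42.2 of CDH10, 84.4 of SRSF10 and 21.1 of PTOV1.

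MED12L, a subunit of the Mediator complex, stood at 327, 395 and 396 CPM in control and 118, 123 and 169 CPM in ALP granule nuclei (log2 fold change −1.41 ± 0.37 SE, edgeR adjusted p = 0.429). MED13, another Mediator subunit, stood at 341, 263 and 341 CPM and 58.8, 40.9 and 218 CPM (−1.61 ± 0.50, adjusted p = 0.478). Its log2 fold change was −2.69 without ALP 3 (edgeR adjusted p = 0.0943) and −1.15 without ALP 2 (edgeR adjusted p = 0.723). ARHGAP42 stood at 805, 494 and 550 CPM and 29.4, 184 and 314 CPM (−1.79 ± 0.47, adjusted p = 0.429). With no filter on low counts ARHGAP42 was among 9 features called (−1.89, edgeR adjusted p = 0.0448). Its value in ALP 1 rests on 1 UMI, and MED12L in the ALP libraries rests on 4, 6 and 7 UMIs, so that the counts behind these genes are small. MED13 in ALP 1 and ALP 2 likewise rests on very few UMIs. THSD7A, a membrane protein with thrombospondin repeats, and PLCE1, a phospholipase C, had log2 fold changes of −1.67 ± 0.50 and −1.52 ± 0.47.

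**Figure D4:**
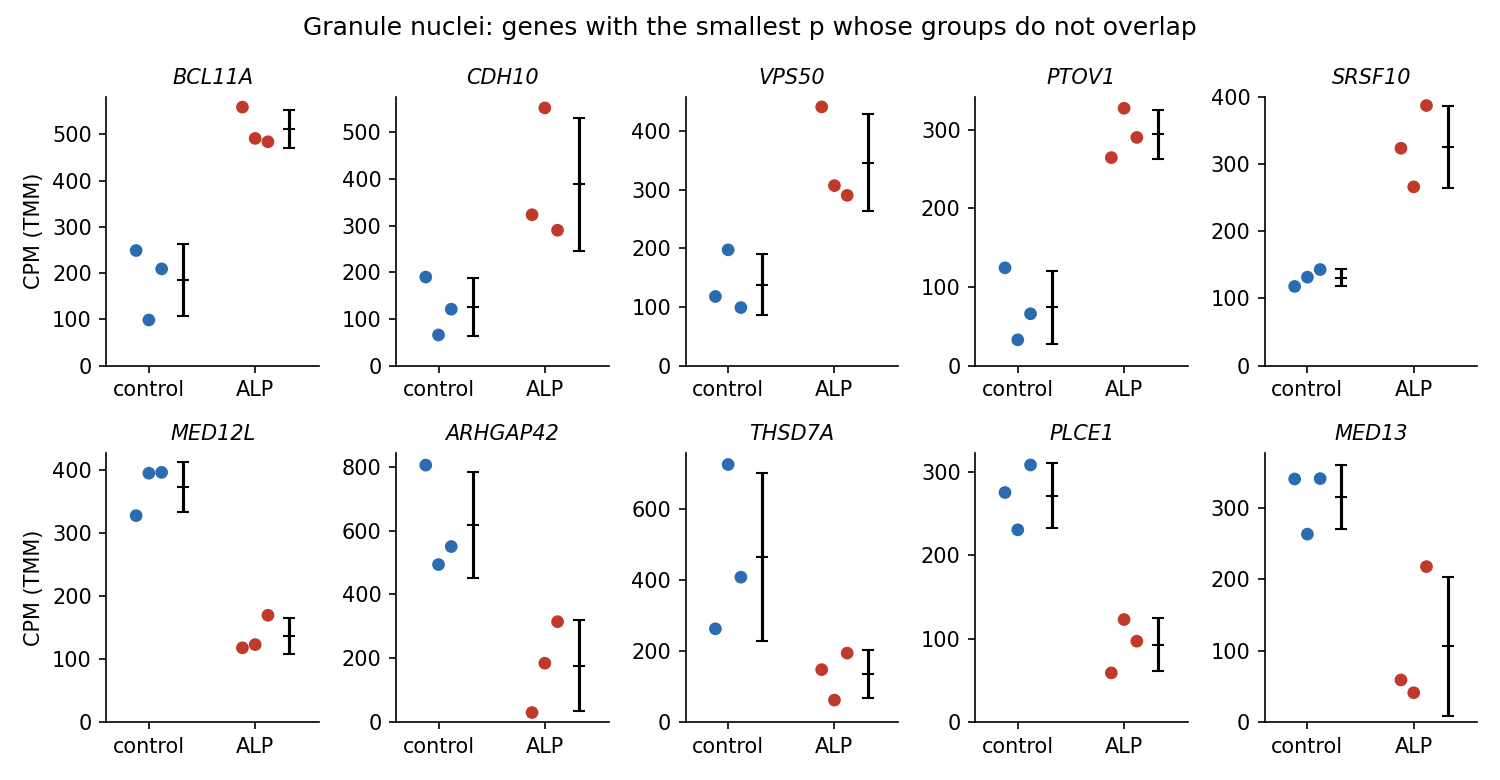
TMM-scaled CPM (vertical axes, from 0) of the 10 genes in granule nuclei, 1 point per library, control 1 to 3 in blue and ALP 1 to 3 in red, with the mean ± SD of the 3 libraries as a bar. They were selected for groups that do not overlap, and none passed the adjusted threshold.

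In the wider set the 5 genes with higher values in ALP kept their direction without overlap, with log2 fold changes of 0.48 (BCL11A), 0.69 (CDH10), 0.52 (VPS50), 1.13 (PTOV1) and 1.00 (SRSF10). MED12L and MED13 also did, at −0.40 and −0.50, whereas ARHGAP42 (−0.26), THSD7A (−0.07) and PLCE1 (−0.50) overlapped between the groups. The wider set contains the 106 nuclei, so the values are not separate evidence.

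No list of genes held a called member in granule nuclei. Over the 1163 tested features outside the rule the median log2 fold change was −0.02. Of 27 tested adhesion genes OPCML and ADGRL2, a latrophilin, had ALP values all above control and NCAM1 all below, with a list median of −0.22. ADGRL2 stood at 399, 296 and 264 CPM in control and 676, 839 and 435 CPM in ALP granule nuclei (log2 fold change 0.99 ± 0.33 SE, edgeR adjusted p = 0.543). Of 17 release genes SV2B, ERC2 and CADPS2 lay above and SNAP91 below without overlap (median 0.05). Of 15 sodium and calcium channel genes CACNA1D and SCN8A lay above and CACNB4 below (median 0.09), and of 14 potassium channel genes none was without overlap (median 0.07).

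Of 7 AMPA, kainate and delta receptor genes GRIA2 lay above by a small margin (log2 fold change 0.28 ± 0.27 SE). Of 2 NMDA and 4 metabotropic receptor genes none was without overlap. Of 10 scaffold genes MAGI1 lay above and DLG2 below. Of 16 axon guidance genes UNC5D lay below, of 9 genes of Alzheimer's risk loci none was without overlap (median 0.07), and of 4 genes for amyloid, tau and their enzymes PPP2R2B, a phosphatase subunit, lay below. The share of genes without overlap in either direction over all features was 12.3%. SYNPR, the vesicle protein described above, lay below at 976, 987 and 1254 TMM-scaled CPM in control and 882, 552 and 629 CPM in ALP (−0.66 ± 0.31, edgeR adjusted p = 0.647). In the wider set it overlapped, at 863, 882 and 895 CPM and 867, 1006 and 764 CPM (0.00 ± 0.15, edgeR adjusted p = 0.998).

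The summed UMIs of a list, as CPM of all UMIs of the nuclei and so including the intergenic transcript LINC-FRMD8-1, which took a larger share in ALP, gave another view than the single genes. The adhesion genes summed to 42527, 39265 and 38133 CPM in control and 37253, 36800 and 30829 CPM in ALP granule nuclei (exact permutation p = 0.1). All ALP sums lay below all control sums, also in the wider set (42371 ± 1551 against 36627 ± 1502 CPM, mean ± SD) and in other excitatory nuclei (35272 ± 1979 against 30657 ± 2515 CPM). The genes for amyloid, tau and their enzymes summed to 2557, 2722 and 2526 CPM in control and 2169, 2123 and 1742 CPM in ALP granule nuclei (exact permutation p = 0.1). Their sums were likewise lower without overlap in the wider set (2425 ± 64.1 against 2159 ± 67.3 CPM) and in other excitatory nuclei (2465 ± 184 against 2141 ± 106 CPM). The sum of the immature neuron genes was lower without overlap in granule nuclei (460 against 378 CPM) but overlapped in the wider set. There the sums of AMPA, kainate and delta receptors (4399 against 3803 CPM) and of scaffolds (12664 against 11400 CPM) were lower without overlap. In other excitatory nuclei the receptor sum was also lower without overlap (4276 against 3538 CPM), and the scaffold sum overlapped. The part of LINC-FRMD8-1 in these sums was not tested.

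A list of glutamatergic genes, DLGAP1, GRIK1, GRM5, ST6GALNAC5 and GRIN2A, was picked by the study on these animals and is not independent evidence of a direction. Of the 5 genes 4 were tested in granule nuclei, 0 were called, and all 4 overlapped between the groups. DLGAP1, a scaffold protein, stood at 373, 296 and 319 CPM in control and 176, 307 and 169 CPM in ALP (log2 fold change −0.60 ± 0.36 SE, edgeR adjusted p = 0.762). In the wider set it stood at 254, 177 and 225 CPM and 176, 139 and 140 CPM (−0.56 ± 0.19, edgeR adjusted p = 0.164), below control without overlap by a narrow margin, and the other 3 tested genes overlapped. In granule nuclei GRM5, ST6GALNAC5 and GRIN2A had log2 fold changes of −0.29, 0.39 and 0.16. The feature named GRIK1 had no UMI in the 106 nuclei and 4 in all nuclei, but a second feature, GRIK1li1, was tested and stood at 1539, 296 and 209 CPM in control and 588, 982 and 943 CPM in ALP (0.20 ± 0.56, edgeR adjusted p = 0.997). How reads fell between these features is not known, so the 0 is no measure of GRIK1. For DLGAP1 another feature, DLGAP1li1, was also tested, so the values above are of the feature named DLGAP1 only. Genes of immature neurons, microglia and vessels had too few UMIs to be tested, and immediate-early, heat shock and oxidative phosphorylation genes had 1 tested member each.

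The wider set of 691 nuclei, chosen after the data had been seen, held 4938651 UMIs and let 7684 features be tested. Again none was called by edgeR (0 of 7684, 0.0%), with a smallest adjusted p of 0.0510 and 1360 features (17.7%) at an unadjusted p under 0.05. DESeq2 called 241, of which 85 were higher and 156 lower in ALP. All 3 ALP values lay above the control values in 876 features (11.4%) and below in 869 (11.3%). The edgeR count depended on the libraries, since it was 584 without control 1, 108 without control 2 and 0 without any of the other 4.

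TOMM40, the pore of the outer mitochondrial membrane through which proteins enter, had the smallest p of the wider set. It stood at 115, 119 and 115 CPM in control and 259, 299 and 280 CPM in ALP libraries (log2 fold change 1.27 ± 0.16 SE, edgeR adjusted p = 0.0510). In the 106 nuclei alone it stood at 144, 395 and 220 CPM and 58.8, 307 and 314 CPM (0.12 ± 0.51, adjusted p = 0.997), so the groups overlapped. In the 585 nuclei with ADARB2 alone it was the 1 feature called (1.43, edgeR adjusted p = 0.0232). The narrow ranges of TOMM40 in the wider set rest on 51 to 305 UMIs per library.

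MED28, a Mediator subunit, NDUFAF3, an assembly factor of respiratory complex I, PPP1R1A, an inhibitor of protein phosphatase 1, and YDJC followed TOMM40 with higher values in ALP. MED28 stood at 25.1, 16.3 and 13.4 CPM in control and 63.4, 81.3 and 73.1 CPM in ALP libraries of the wider set, and NDUFAF3 at 32.2, 18.7 and 28.3 CPM and 104, 75.4 and 91.4 CPM. HEATR9, SKA2, MRPL22, C12ORF42 and DDX60 had the smallest p among genes with lower values. SKA2, a protein of the spindle and kinetochore complex, stood at 937, 516 and 1145 CPM and 389, 298 and 325 CPM (log2 fold change −1.38 ± 0.26 SE, edgeR adjusted p = 0.0519), and DDX60, a helicase of the antiviral response, at 70.4, 53.7 and 78.9 CPM and 28.8, 20.6 and 32.5 CPM (−1.37 ± 0.29, adjusted p = 0.0582). In all of these the groups were apart and the adjusted p missed the threshold. The means of other excitatory nuclei went the same way. As CPM of all UMIs they went from 545 in control to 244 in ALP libraries for SKA2. The means were 23.7 and 5.35 for MRPL22, 47.7 and 26.2 for DDX60, 29.9 and 70.7 for NDUFAF3, and 75.0 and 123 for YDJC. There the groups overlapped for MED28 (20.9 and 32.8), C12ORF42 (19.8 and 18.2) and TOMM40 (134 and 159).

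Nuclear genes of oxidative phosphorylation, the respiratory chain and the ATP synthase, had the highest median log2 fold change of the lists with more than 1 tested gene in the wider set. Of 91 listed genes 29 were tested, 14 had ALP values all above control and 0 all below, against 11.4% and 11.3% of all features. Their median log2 fold change was 0.76, beside −0.003 over all 7677 features outside the rule, and 24 of the 29 were above 0. None passed the adjusted threshold of edgeR. With all libraries 14 of the 29 had higher values at an unadjusted p under 0.05, beside 663 of 7684 over all features. With each library left out in turn the fewest were 9 of 30 without control 3 and 9 of 31 without ALP 3. The most were 18 of 31 without control 1 and 18 of 32 without ALP 1. Over all features 472 of 7842, 483 of 8987, 910 of 8025 and 680 of 8891 were higher in the same order. The list median stayed between 0.67 and 0.96. NDUFB10, a subunit of complex I, stood at 119, 103 and 87.9 CPM in control and 285, 177 and 252 CPM in ALP libraries (1.17 ± 0.22 SE, edgeR adjusted p = 0.0519). COX4I1, a subunit of cytochrome c oxidase, stood at 81.1, 30.3 and 34.3 CPM and 115, 152 and 146 CPM (1.40 ± 0.33, adjusted p = 0.0679), and NDUFS7, of complex I, at 102, 105 and 53.6 CPM and 176, 174 and 156 CPM (0.95 ± 0.25, adjusted p = 0.0828). NDUFS1, also of complex I, had the lowest log2 fold change of the list, −0.50 ± 0.32, and overlapped.

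**Figure D5:**
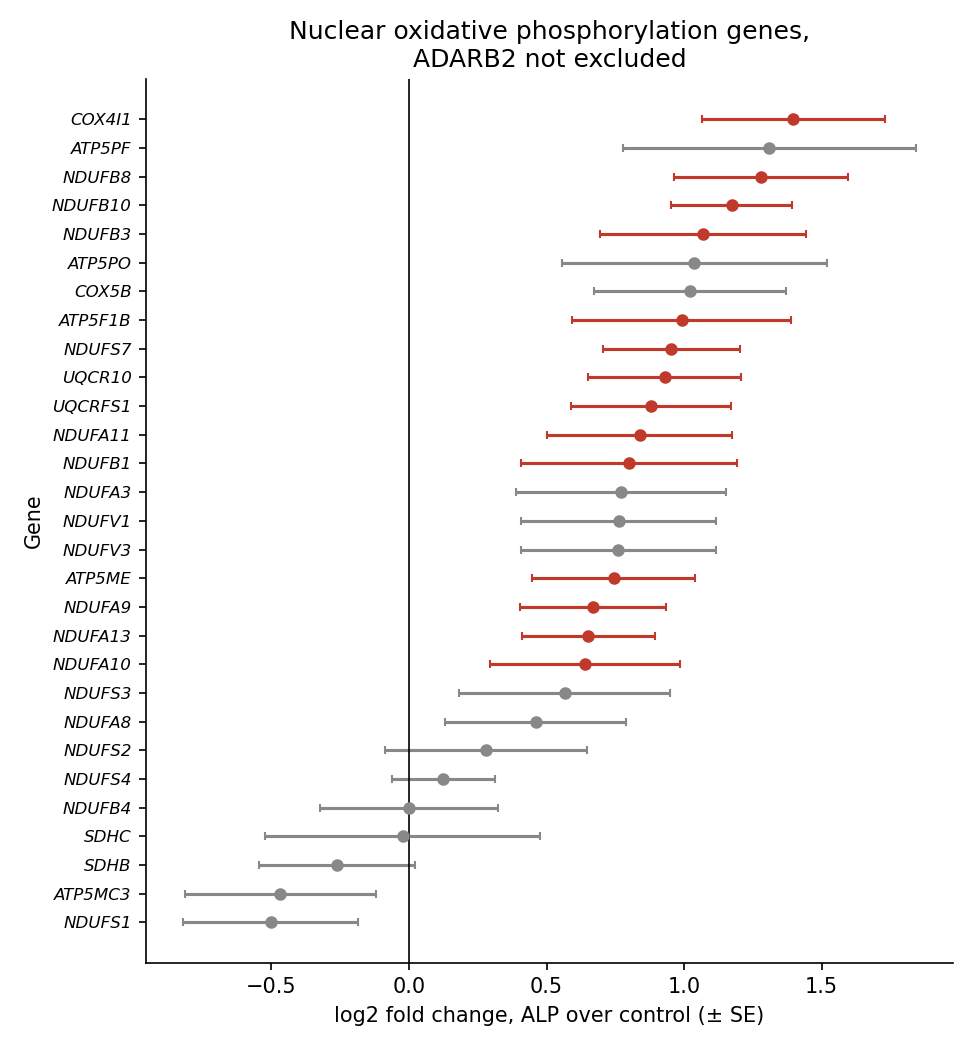
Log2 fold change of ALP over control (horizontal axis, with SE) for the 29 tested oxidative phosphorylation genes in the wider set, in which ADARB2 is not excluded. The 14 genes in red have ALP values all above control, those in grey overlap, and 24 of the 29 points lie above 0.

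The summed level of the whole oxidative phosphorylation list was 1438, 1208 and 1020 CPM in control and 1621, 2054 and 1914 CPM in ALP libraries of the wider set (exact permutation p = 0.1, the smallest possible). In the 106 nuclei it was 1267, 1414 and 1094 CPM and 1846, 1252 and 1974 CPM, which overlapped (exact permutation p = 0.3), and in other excitatory nuclei 1480, 1377 and 1123 CPM and 1668, 1452 and 1721 CPM (exact permutation p = 0.2). UMIs with MT- names in the wider set were 0.0169% in control and 0.0240% in ALP libraries, without overlap, on the same 3 features. Of the 73 listed genes in the annotation 47 had a UMI in any nucleus, so a part of the chain is unseen.

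Some other lists of the wider set had members without overlap, and edgeR as fitted called none of these. Over all features 22.7% were without overlap, 11.4% higher and 11.3% lower, and several of the following counts lie near or below these shares. Of 11 CA pyramidal and mossy markers CCK, a neuropeptide, CALCRL and RGS14 lay above, with CCK at 36.4, 28.0 and 25.3 CPM in control and 57.6, 76.4 and 85.3 CPM in ALP libraries (log2 fold change 1.26 ± 0.27 SE, edgeR adjusted p = 0.059). ERBB4, the neuregulin receptor of interneurons, lay below at 1089, 1274 and 554 CPM and 288, 493 and 510 CPM (−1.16 ± 0.30, adjusted p = 0.0794), and it gave 3600 of the 3968 UMIs of the interneuron list. That list summed to 1127, 1378 and 587 CPM in control and 341, 514 and 490 CPM in ALP libraries, without overlap, with GAD2 and SLC32A1 at 0, and its part in the differences of the wider set was not tested. Of 7 genes of immature neurons STMN1, STMN4 and TBR1 lay above and DCX below. Of 40 adhesion genes ADGRL2 lay above and LSAMP, LRRTM4, NRXN2, CNTN4 and NEGR1 below (median −0.15). Of 28 release genes SYT4, SV2B, ERC2 and SYP lay above and NSF and BSN below. PSENEN, a subunit of gamma-secretase, lay above and ADAM10, an alpha-secretase, below.

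Whether an ALP difference was particular to granule nuclei was tested as an interaction with other excitatory nuclei of the same libraries. No feature was called by edgeR (0 of 1167, 0.0%; smallest adjusted p 0.999), and 38 (3.26%) had an unadjusted p under 0.05. Among genes with a plain symbol BCL11A had the smallest p, with a mean of 121 CPM in control and 320 CPM in ALP granule nuclei against 253 and 243 CPM in other excitatory nuclei, a difference of 1.23 ± 0.32 (SE) on the log2 scale. MED12L followed, with 241 and 84.3 CPM against 148 and 129 CPM (−1.36 ± 0.37). ARHGAP42 went from 403 CPM in control to 106 CPM in ALP granule nuclei and from 93.5 to 23.6 CPM in the others, an interaction of −0.05 ± 0.50, with 1 UMI behind the value of ALP 1. In the wider set none was called either (0 of 7684, 0.0%), with 473 (6.16%) under the unadjusted limit. There ARHGAP42 had the smallest p among genes with a plain symbol, at 359 CPM in control and 283 CPM in ALP libraries against the same 93.5 and 23.6 CPM, an interaction of 1.597 ± 0.275 (edgeR adjusted p = 0.387), so its near-zero value in the 106 nuclei did not hold in the wider set. The 29 oxidative phosphorylation genes tested in the wider set had a median difference of 0.37 on the log2 scale. Of them 5 were higher at an unadjusted p under 0.05, beside 284 of 7684 over all features. Without ALP 2 the median was 0.16 and none was under that limit.

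Antisense-named features and 1 intergenic transcript were apart between the groups in granule nuclei. Antisense-named features gave 7.01%, 7.18% and 11.2% of granule UMIs in control and 6.16%, 5.25% and 4.58% in ALP libraries (exact permutation p = 0.1). The intergenic transcript LINC-FRMD8-1 gave 12.6%, 16.4% and 14.5% and 18.7%, 18.3% and 30.7% (exact permutation p = 0.1). The groups did not overlap in either, and other excitatory nuclei differed in the same direction, with means of 8.55% in control and 5.18% in ALP libraries for the former and 17.7% and 27.9% for the latter. Of 41 antisense-named features tested in granule nuclei 8 had ALP values all below control (19.5%) and 1 all above (2.44%), beside 6.34% and 5.91% of all features. Of 840 tested in the wider set 283 lay below (33.7%) and 23 above (2.74%), beside 11.3% and 11.4% of all features. Control 3, the library with the highest share, bore on these counts. With an unadjusted p under 0.05 by edgeR, 6 of 41 features were lower in granule nuclei (median log2 fold change −0.21), and 2 of 46 without control 3 (−0.08). Over all features 44 of 1167 were lower, and 41 of 1346 without control 3, so that the 2 of 46 lay near the share of all features. With another library left out more features were tested, and 10 of 67 without ALP 2 (−0.27) to 14 of 61 without control 2 (−0.40) were lower. It was 12 of 67 without ALP 1 (−0.52), 13 of 60 without control 1 (−0.46) and 10 of 69 without ALP 3 (−0.41). With marked doublets removed 4 of 39 were lower (−0.09). Over all features 45 of 1352 without ALP 2, 50 of 1352 without control 2 and 43 of 1377 without ALP 1 were lower. It was 70 of 1350 without control 1, 49 of 1381 without ALP 3 and 39 of 1039 with marked doublets removed. In the wider set 333 of 840 were lower, beside 697 of 7684 over all features. Without control 3 it was 215 of 841, beside 512 of 7842 over all features. Without control 1 and control 2 it was 443 of 970 and 470 of 1143, beside 929 of 8025 and 880 of 8778 over all features. Without ALP 1, ALP 2 and ALP 3 it was 465 of 1222, 327 of 1054 and 348 of 1269. Beside these stood 800 of 8891, 627 of 8093 and 610 of 8987 over all features. As shares of the antisense-named features tested, the counts without an ALP library were also below that of all libraries. The use of strand in counting is not stated, so reads of a gene and of its antisense partner cannot be told apart. The part of these features in the differences between groups was not tested.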

How the data were processed

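Raw counts were deposited by the authors as 1 matrix per library, each value the number of UMIs of a feature in a nucleus barcode. Libraries were made with the 10x Chromium 3′ chemistry. The submitters' processing notes name Cell Ranger 3.1.0, the matrix headers 6.1.2, with the TreeshrewDB genome, whose build is not given in the sources used here. No sequence is shown, since no genome of that annotation was used here. The annotation holds 83605 features, of which 22595 are named as antisense and 31778 as intergenic.

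The rule was applied to the raw counts, with no upper limit on genes, whereas the study kept nuclei with up to 2500 genes. The members and gene lists were chosen with earlier results of these data known. CPM of levels are UMIs scaled to the same total of all UMIs of a set of nuclei, are not scaled by gene length and are compared within a gene only. CPM beside an edgeR result are scaled by TMM over the tested features. The study fitted MAST over nuclei, and here UMIs were summed per library, because nuclei of 1 animal are not replicates. The sums of the 3 ALP and 3 control libraries were compared by the quasi-likelihood test of edgeR 4.0.16 (R 4.3.3), with TMM factors, a minimum count of 10 and Benjamini-Hochberg adjustment over all features, and a feature was called at an adjusted p under 0.05 and a log2 fold change beyond 0.25. The interaction was fitted with the library as a block. Single values per library were compared by two-sided exact permutation tests over the 20 arrangements with scipy 1.17.1. The test was tried on simulated data before use.

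Named were the genes of the rule and, since none was called, the 5 genes each way with a plain symbol and the smallest p among those whose groups did not overlap. Members of lists and of ratio rankings named for their values were chosen after these were seen. Doublets were scored with Scrublet in scanpy 1.11.5, and the highest scores were marked up to 0.8% per 1000 barcodes. Alternatives were DESeq2 1.42.0, RLE size factors, no filter on low counts, a replicate block, a covariate for Y-linked transcripts, each library left out, at most 2500 genes, at most 5% of UMIs with MT- names, a marker minimum of 6, thinning to 2000 UMIs and marked doublets removed. The wider set with ADARB2 not excluded was added after seeing the data. Some genes of the lists are not reported here.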

Additional observations from a re-analysis of the deposited data

How the results depend on the processing

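For values per library the exact permutation test cannot reach 0.05, so its side of the threshold says nothing of stability. The share of granule nuclei among all nuclei was lower in ALP under all alternatives but thinning to 2000 UMIs, where ALP exceeded control by 0.0138 percentage points. The lower median of UMIs per granule nucleus, −2268 in ALP, shrank to −108 with at most 2500 genes, −208 with a marker minimum of 6 and −944 with ADARB2 not excluded, and ranged from −3015 to −1775 with 1 library left out. The share of UMIs with MT- names differed by −0.0555 percentage points with at most 2500 genes and 0.00712 with ADARB2 not excluded, and by −0.0101 to −0.00463 with 1 library left out. The number of features called in granule nuclei, 0, was 9 with no filter on low counts, among them ARHGAP42 (−1.89), and ranged from 0 to 1 with 1 library left out, the 1 being without control 1. With ADARB2 not excluded it was 0 as fitted, 17 with RLE size factors, 241 with DESeq2, 691 with no filter, 242 with the term for Y-linked transcripts, 24 with thinning, 1 with marked doublets removed (TOMM40), and 0 to 584 with 1 library left out, the highest without control 1 and then 108 without control 2. The interaction, 0 called, gave 0 to 4 with 1 library left out and, with ADARB2 not excluded, 46 with no filter, 5 with at most 2500 genes and 0 to 23 with 1 library left out, the most without control 1 in both. The causes of these differences were not tested. The other 9 named genes kept their direction and stayed above the adjusted threshold under every alternative that gave a value. With the replicate block 0 features were called in granule nuclei (86 at an unadjusted p under 0.05 against 89) and 0 with ADARB2 not excluded (1184 against 1360). Deviations of same-numbered libraries correlated at −0.150, 0.00196 and −0.176 in granule nuclei. Those of differently numbered libraries lay between −0.0658 and 0.201, so equal numbers did not go with higher correlation. Whether libraries shared a batch was not tested. Low depth limited the test in the 106 nuclei to 1167 of 83605 features.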
